A study of Mus musculus with 6 samples.

Results

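*Tmem176a* and *Tmem176b* are neighbouring mouse genes whose transcripts were counted in naive CD4+ T cells (Naive) and in T cells cultured as Th17 or Th1 cells, with 2 libraries of each. The members were the 2 rows with these gene symbols among the 24223 genes of the count files, and both were among the 13607 genes that passed the filter on low counts. The pair was selected on its CPM across Naive, Th17 and Th1 in these same 6 libraries, so its levels and fold changes are given as a description, with standard errors and without a test. Naive cells were CD4+CD44- T cells purified on magnetic columns from pooled lymph nodes and spleens of C57BL/6 mice aged 1 to 2 months. Th17 and Th1 cells were grown from such cells for 5 days on antibodies to CD3 and CD28. The Th17 cultures received TGF-β, IL-6, IL-1β and IL-23 with antibodies against IL-4 and IFN-γ, and the Th1 cultures received IL-12 and IL-2 with an antibody against IL-4. The study calls the libraries of a group independent biological replicates, from pooled organs, and the labels do not tie them to animals or cultures, so each p-value measures the spread between these libraries.

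TMEM176A and TMEM176B are membrane proteins that span the membrane several times and resemble the MS4A family, whose best known member is the B cell antigen CD20 (*Ms4a1*). They lie largely in internal membranes, have been linked to cation transport there, and are known from dendritic cells and macrophages. Th17 cells are helper T cells that make IL-17A, IL-17F and IL-22. T-bet, the product of *Tbx21*, directs the Th1 fate, in which T cells make IFN-γ.

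The genes lie head to head on chromosome 6. In the GENCODE annotation of GRCm38, *Tmem176b* (ENSMUSG00000029810.15) was on the minus strand from 48833818 to 48841496 with 12 transcripts, and *Tmem176a* (ENSMUSG00000023367.14) was on the plus strand from 48840919 to 48847071 with 7 transcripts. The annotated spans overlapped by 578 bp. Exons of opposite strands overlapped by 81 bp, which was 2.13% of the exon bases of *Tmem176a* and 3.42% of those of *Tmem176b*. Reads from those bases can be given to the right gene only by their strand, and the study describes the strand setting of its counting in more than one way.

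The promoter windows below are shown because the pair shares the sequence between its starts. They are RefSeq windows on GRCm38.p6, from 250 bases before to 50 bases after a gene start, at chr6:48841233-48841532 on the plus strand for *Tmem176a* and at chr6:48841088-48841387 on the minus strand for *Tmem176b*. Each is written 5′ to 3′ on the strand of its gene, and the capitals mark the 155 bases that both windows hold, which read as reverse complements of each other.
Tmem176a: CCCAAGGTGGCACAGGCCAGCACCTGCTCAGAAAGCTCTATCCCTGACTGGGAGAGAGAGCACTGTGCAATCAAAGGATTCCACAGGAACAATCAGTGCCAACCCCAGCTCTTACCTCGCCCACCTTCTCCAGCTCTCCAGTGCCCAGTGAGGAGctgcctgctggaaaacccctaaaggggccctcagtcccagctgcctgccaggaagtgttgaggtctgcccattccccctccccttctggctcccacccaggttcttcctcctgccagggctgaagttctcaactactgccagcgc
Tmem176b: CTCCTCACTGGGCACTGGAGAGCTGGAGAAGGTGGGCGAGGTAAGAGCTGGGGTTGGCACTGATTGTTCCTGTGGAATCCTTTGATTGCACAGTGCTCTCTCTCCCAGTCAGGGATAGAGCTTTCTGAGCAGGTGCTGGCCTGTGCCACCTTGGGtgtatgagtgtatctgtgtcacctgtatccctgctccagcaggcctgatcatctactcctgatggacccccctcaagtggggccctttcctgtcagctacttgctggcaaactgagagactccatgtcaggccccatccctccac
The starts in these windows were 346 bp apart. G and C made up 59.7% of the window of *Tmem176a* and 56.7% of that of *Tmem176b*, beside a median of 52.7% over all 32851 windows. The table held 2 windows of *Tmem176a* and 3 of *Tmem176b*, and 0 of these 5 held, on either strand, any of the motifs of the listed factors. These were the nuclear receptor core AGGTCA (in 16.3% of all windows), its longer forms TAGGTCA (2.61%) and TGGGTCA (3.98%), the AP-1 and BATF motif TGANTCA (7.81%), the STAT motif TTCNNNGAA (8.30%) and the T-box motif AGGTGTGA (1.28%). The longer forms TAGGTCA and TGGGTCA differ in how much of the core they hold, since the first contains AGGTCA and the second does not. After the sequence had been seen, the TCF and LEF core CTTTGA (16.0% of all windows) and the ETS core GGAAGT (23.8%) were also looked for. CTTTGA was found once in each printed window, at the same place in the shared stretch. In the window of *Tmem176a* it reads as its reverse complement TCAAAG, whose first base lies 180 bases before the start. In that of *Tmem176b* it reads CTTTGA, whose first base lies 171 bases before the start. GGAAGT was found 45 bases before the start of *Tmem176a* and not in the printed window of *Tmem176b*. Over all 5 windows, CTTTGA was in 2 and GGAAGT in 3. Those with GGAAGT were both windows of *Tmem176a* and 1 window of *Tmem176b* that is not printed. These 3 windows overlap, and each held the GGAAGT that lies 45 bases before the printed start of *Tmem176a*. The 3 are therefore not separate finds. Such a match describes letters only and shows no binding.

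The libraries held between 17742158 and 69080017 counts on genes, and replicate 1 of each group was at least 3 times deeper than replicate 2. At 3 counts, the limit used here for detection, a gene had between 0.044 and 0.190 CPM (counts scaled to the library total, here with TMM normalization). A gene is called, or said to rise or fall, where its edgeR adjusted p was under 0.01 and its log2 fold change exceeded 1 in either direction. Of all 13607 tested genes, 5.43% were called in Th17 against Naive (4.01% higher, 1.43% lower), 7.45% in Th1 against Naive (4.64% higher, 2.81% lower) and 5.53% in Th17 against Th1 (2.83% higher, 2.70% lower). Markers of T cells were present throughout, with 7 of 10 listed genes in the files and a summed level of 3191 to 4549 CPM. Of these 7 genes, 0 passed the test in any comparison by edgeR or DESeq2, and 2 had an unadjusted p under 0.05 in Th17 against Naive and 0 in the other comparisons. All 6 listed Th1 genes were higher in Th1 than in Naive, with *Tbx21* moving from 23.3 and 20.9 CPM to 138 and 159 CPM. Of 6 listed naive T cell genes, 0 passed the edgeR test in any comparison, with 0, 3 and 2 at an unadjusted p under 0.05 in Th17 against Naive, Th1 against Naive and Th17 against Th1. DESeq2 called 0, 1 and 1 of them.

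*Tmem176a* was lowest in Naive, intermediate in Th1 and highest in Th17. It had 323 and 105 counts in the Naive libraries, 3406 and 871 in Th17, and 1792 and 505 in Th1. As TMM-scaled CPM, Naive stood at 4.74 and 5.20, Th17 at 52.1 and 49.3, and Th1 at 27.7 and 31.9. The replicates of each group lay close together. The means were 4.97 ± 0.324 CPM in Naive, 50.7 ± 2.01 in Th17 and 29.8 ± 2.97 in Th1 (SD, n = 2). The fitted log2 fold change was 3.35 (SE 0.30) for Th17 over Naive, a 10.2-fold difference. For Th1 over Naive it was 2.59 (SE 0.29), or 6.01-fold, and for Th17 over Th1 it was 0.77 (SE 0.27), or 1.70-fold. In bulk RNA, a larger share of cells that express a gene and more of its RNA in each cell cannot be told apart.

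*Tmem176b* followed the same order from a higher starting level. Naive libraries held 916 and 183 of its counts, Th17 libraries 4907 and 1226, and Th1 libraries 2362 and 667. Its levels were 13.4 and 9.06 CPM in Naive, 75.1 and 69.4 CPM in Th17, and 36.5 and 42.2 CPM in Th1. By ratio, the Naive libraries stood farthest apart, replicate 1 being 1.48 times replicate 2. The means were 11.3 ± 3.10 CPM in Naive, 72.2 ± 4.05 in Th17 and 39.4 ± 3.98 in Th1 (SD, n = 2). The fitted log2 fold changes were 2.68 (SE 0.31) for Th17 over Naive, 1.80 (SE 0.30) for Th1 over Naive and 0.88 (SE 0.29) for Th17 over Th1. These correspond to 6.39-fold, 3.48-fold and 1.84-fold.

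**Figure D1:**
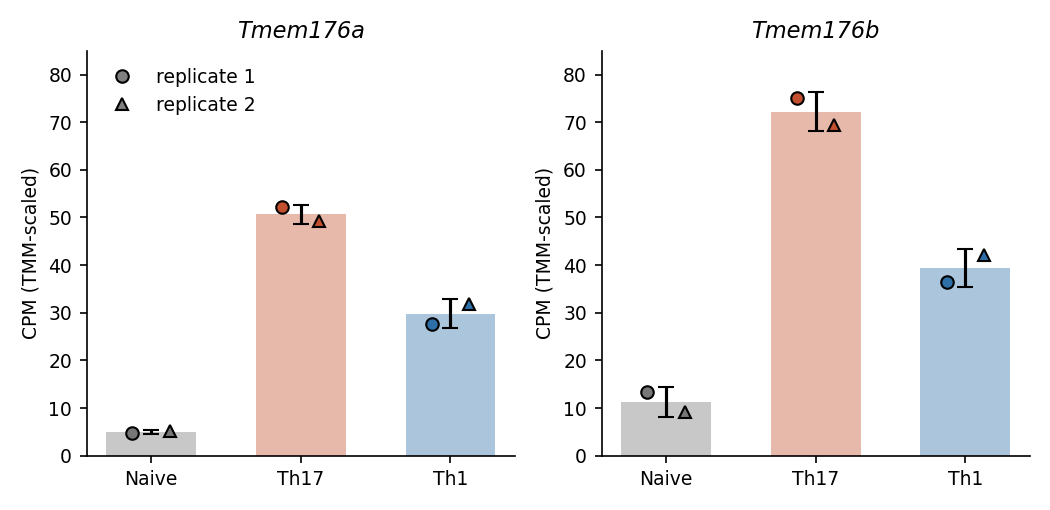
Levels of *Tmem176a* (left) and *Tmem176b* (right) in TMM-scaled CPM. Bars show the mean and error bars the SD of 2 libraries, and points show the libraries. The means of both genes had the order Naive, Th1, Th17, and neither gene was tested. They were 4.97, 29.8 and 50.7 CPM for *Tmem176a* and 11.3, 39.4 and 72.2 CPM for *Tmem176b*.

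The gaps between neighbours in that order are given beside the spread as a description, since the pair was selected on these levels. For *Tmem176a*, the lowest Th1 library was 22.5 CPM above the highest Naive library and the lowest Th17 library 17.4 CPM above the highest Th1 library, where the larger SD of the groups concerned was 2.97 CPM. For *Tmem176b* the gaps were 23.1 and 27.2 CPM, with a larger SD of 3.98 and 4.05 CPM. Taken library by library, the ratio of Th17 to Th1 ran from 1.54 to 1.88 for *Tmem176a* and from 1.65 to 2.06 for *Tmem176b*. Counting error alone ranged from 1.43% of the value for *Tmem176b* in Th17 replicate 1 to 9.76% for *Tmem176a* in Naive replicate 2.

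Per kilobase of exon, *Tmem176b* was the more abundant gene in every library. In Naive the mean levels per kilobase were 1.31 CPM for *Tmem176a* and 4.75 CPM for *Tmem176b*, which placed them above 29.1% and 48.9% of the 13027 tested genes with annotated exons. In Th17 they were 13.3 and 30.5 CPM per kilobase, above 73.5% and 87.5% of genes. In Th1 they were 7.83 and 16.6 CPM per kilobase, above 59.0% and 75.5% of genes.

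The balance within the pair is given as the share of its counts that fell on *Tmem176a*. *Tmem176a* made up 26.1% of the counts of both genes in Naive replicate 1 (95% exact Clopper-Pearson interval 23.6 to 28.6%) and 36.5% in Naive replicate 2 (30.9 to 42.3%). It made up 41.0% (39.9 to 42.0%) and 41.5% (39.4 to 43.7%) in Th17. In Th1 the shares were 43.1% (41.6 to 44.7%) and 43.1% (40.2 to 46.0%). These intervals cover counting error only. The 4 cultured libraries lay close together, whereas the intervals of the Naive libraries did not overlap each other. That of Naive replicate 1 lay below those of all cultured libraries, and that of Naive replicate 2 overlapped them. Per kilobase, the ratio of *Tmem176a* to *Tmem176b* was 0.288 ± 0.0974 in Naive, 0.437 ± 0.00714 in Th17 and 0.472 ± 0.000636 in Th1 (SD, n = 2).

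**Figure D2:**
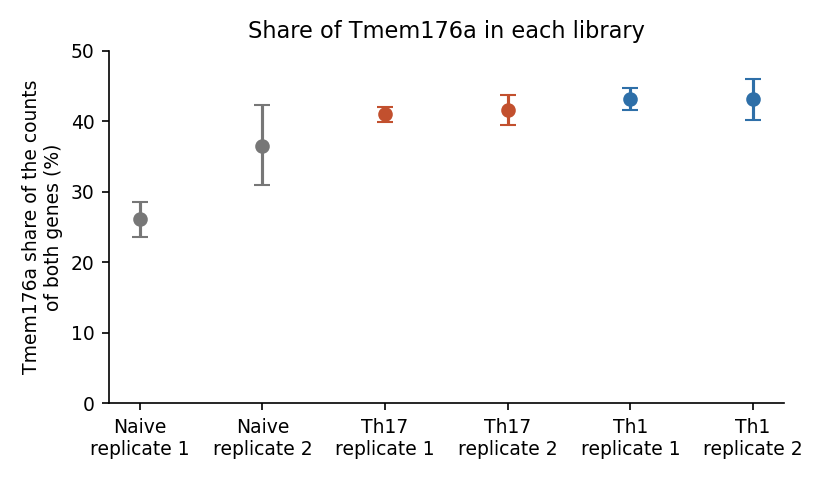
Share of *Tmem176a* in the summed counts of *Tmem176a* and *Tmem176b*, in percent, for each library, with error bars for the 95% exact binomial interval. The Naive libraries lie at 26.1% and 36.5% and the 4 cultured libraries between 41.0% and 43.1%.

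Genes whose profile was most like that of the pair were found by the root mean square difference of centred log2 CPM from the mean of the pair, over the 6 libraries. The 2 members differed from each other by 0.386 on that scale, with a Pearson r of 0.98 across libraries that fall into 3 groups, and of 13606 genes *Tmem176b* ranked as number 20 in likeness to *Tmem176a*, and *Tmem176a* as number 40 in likeness to *Tmem176b*. Among the 10 genes most like the pair, with differences of 0.209 to 0.310, were *Ndrg4*, *Pkib*, *S100a6*, *Fut7*, *Gem*, *Klrb1f*, *Ddx25*, *Ier3* and *Tmeff2*. *Klrb1f* shares chromosome 6 with the pair. *S100a6*, which encodes a small calcium-binding protein, was the most abundant of them, at 31.9 and 17.3 CPM in Naive, 180 and 183 CPM in Th17 and 78.8 and 106 CPM in Th1. *Fut7* encodes a fucosyltransferase that completes selectin ligands, and it had 5.504 and 2.87 CPM in Naive, 28.2 and 24.95 CPM in Th17 and 19.5 and 15.4 CPM in Th1. *Pkib*, an inhibitor of protein kinase A, had 1.28 and 0.842 CPM in Naive, 9.58 and 12.4 CPM in Th17 and 4.78 and 5.75 CPM in Th1. All of these genes share the order Naive, Th1, Th17 of the pair, because that order is what the measure selects. The list depended on the measure, since 2 of the 10 remained with Pearson r in place of the difference and 5 remained when all libraries were thinned to the depth of the smallest. Some of the 10 were near the floor. *Tmeff2* had 0 counts in both Naive libraries and *Ddx25* had 13 and 2, so their log2 levels there rest on few or no reads.

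The genes around the pair were examined next. Within 500 kb of the midpoint of the pair, the annotation listed 57 other genes, of which 28 were in the files and 20 were tested. In Th17 against Naive, 1 of these 20 was called, higher, where 5.43% of all 13607 tested genes were called, 4.01% higher and 1.43% lower. In Th1 against Naive, 3 of 20 were called, all higher, beside 7.45% of all genes, 4.64% higher and 2.81% lower. In Th17 against Th1, 1 of 20 was called, lower, beside 5.53% of all genes, 2.83% higher and 2.70% lower. The medians of the 20 log2 fold changes were 0.07, 0.39 and -0.16 in these 3 comparisons, beside -0.02, -0.02 and 0.03 for all genes.

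On the side of *Tmem176b* lies the *Gimap* cluster, a family of GTPases of lymphocytes. Its nearest member *Gimap3*, which starts 70.5 kb from the midpoint, had 610 and 900 CPM in Naive, 815 and 926 CPM in Th17 and 850 and 997 CPM in Th1. Its fitted log2 fold changes were 0.20 (SE 0.31) for Th17 and 0.29 (SE 0.31) for Th1 over Naive. *Gimap5* and *Gimap1*, the next ones, also did not pass the test in either comparison, with log2 fold changes of -0.07 and -0.65 in Th17 and 0.44 and 0.56 in Th1. *Gimap7* rose in Th1, from 59.1 and 63.4 CPM to 199 and 284 CPM (log2 fold change 1.98, SE 0.32, edgeR adjusted p = 0.00301), a call that was lost without Naive replicate 1 (1.92), Naive replicate 2 (2.03) or Th1 replicate 2 (1.71).

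On the side of *Tmem176a*, the nearest gene in the files, *Aoc1*, which encodes a diamine oxidase, had 2 counts or fewer in every library and was not tested. The next tested gene was *Gpnmb*, 195 kb away, which encodes a membrane glycoprotein known from macrophages and pigment cells. It had 4.10 and 4.06 CPM in Naive, 27.5 and 224 CPM in Th17 and 48.5 and 63.8 CPM in Th1. The Th17 libraries thus stood far apart, unlike those of the pair. *Gpnmb* passed the test against Naive in Th17 (log2 fold change 4.94, SE 0.81, edgeR adjusted p = 0.00372) and in Th1 (3.78, SE 0.77, edgeR adjusted p = 0.00905). Its log2 fold change in Th17 was 5.78 without Th17 replicate 1 and 2.75 without Th17 replicate 2, and the call was lost without either Naive library (4.95 and 4.92). The call in Th1 was lost without any 1 of the Naive and Th1 libraries (3.58 to 4.01) and with scaling by library size alone (3.53). *Malsu1*, a factor of the mitochondrial ribosome, did not pass the test in any comparison, with log2 fold changes of 1.19 (SE 0.33) in Th17 and 0.50 (SE 0.33) in Th1. *Igf2bp3*, which encodes an RNA-binding protein, was at 10.2 CPM in both Naive libraries, at 17.7 and 14.0 CPM in Th17 and at 63.2 and 41.5 CPM in Th1. It was higher in Th1 than in Naive (log2 fold change 2.36, SE 0.33, edgeR adjusted p = 0.00136) and lower in Th17 than in Th1 (-1.72, SE 0.32, edgeR adjusted p = 0.00726). The second call was lost without Th17 replicate 1 (-1.90), Th17 replicate 2 (-1.57) or Th1 replicate 1 (-1.38), with scaling by library size alone (-1.51) and with at least 10 counts in every library (-1.64). The 3 neighbours called in any comparison became 1 when Naive replicate 1 or Naive replicate 2 was left out.

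**Figure D3:**
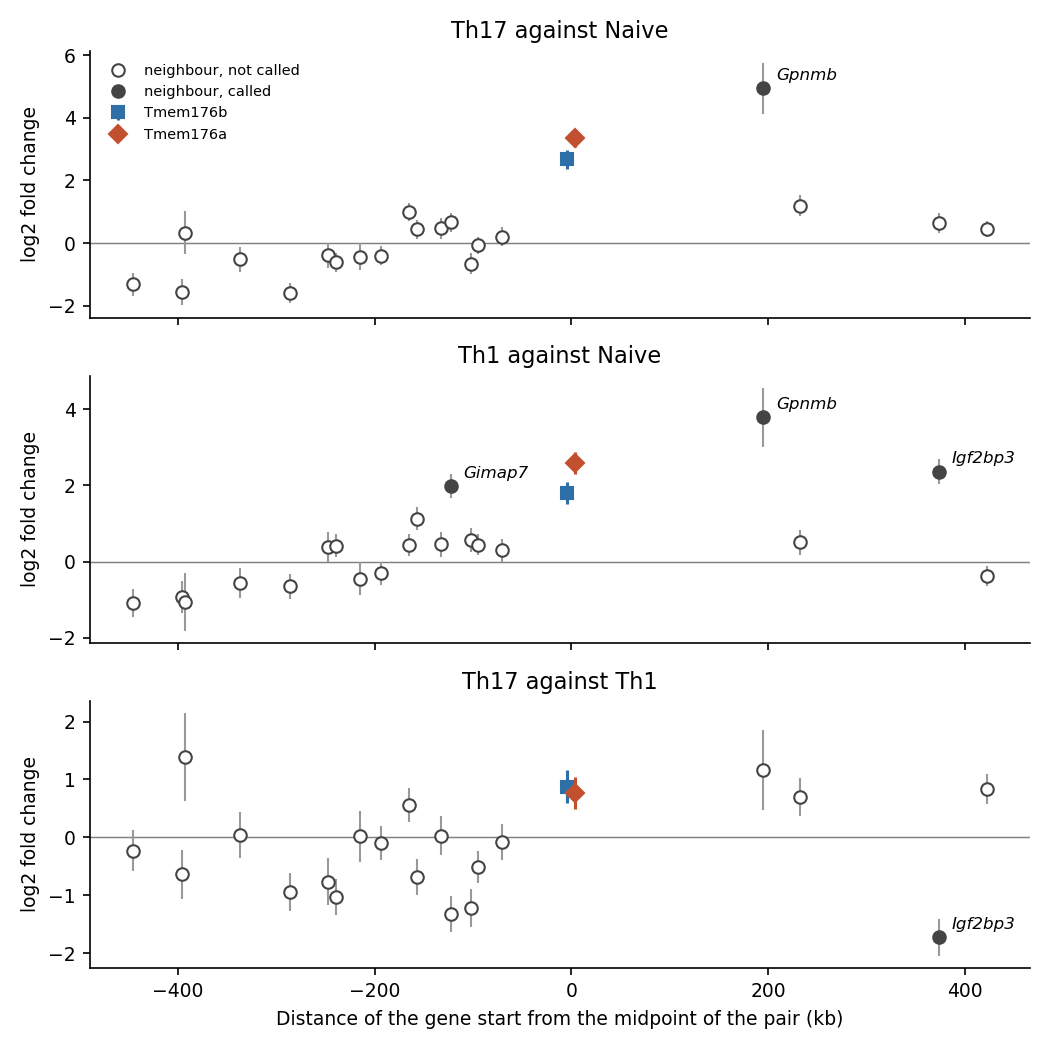
Fitted log2 fold change (SE as error bars) of the 20 tested genes within 500 kb, against the distance of their start from the midpoint of the pair in kb, for the 3 comparisons. Filled circles mark called neighbours, and *Tmem176b* (square) and *Tmem176a* (diamond) are drawn slightly apart and were not tested; against Naive both lie above all neighbours nearer than *Gpnmb*, apart from *Gimap7* in Th1, which lies between them.

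Head-to-head genes were common, with 884 pairs of tested genes on opposite strands whose starts lay within 1000 bp, this pair included. Between the genes of such a pair, the median absolute difference in log2 fold change was 0.64 for Th17 over Naive, 0.47 for Th1 over Naive and 0.58 for Th17 over Th1. *Tmem176a* exceeded *Tmem176b* by 0.68 in the first and 0.79 in the second, and *Tmem176b* exceeded *Tmem176a* by 0.11 in the third. Both genes of a pair had an absolute log2 fold change above 1 in the same direction in 31, 37 and 25 of the pairs, which was 3.51%, 4.19% and 2.83%. Both genes changed at least as much as the less changed of the 2 members in 4 pairs for Th17 over Naive, 17 for Th1 over Naive and 59 for Th17 over Th1, this pair included. The cutoff in these counts is the pair's own fold change, on which it was selected. They are therefore a description and cannot show how unusual the pair is.

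The genes of the Th17 programme were described beside the pair by role. Of 30 listed factors, cytokines and receptors, 29 were tested. In Th17 against Naive 14 rose and 0 fell (4.01% and 1.43% of all genes), with 21 at an unadjusted p under 0.05 and with 16 higher and 1 lower by DESeq2. The median log2 fold change of the list was 1.82, beside -0.02 for all genes. In Th1 against Naive 9 rose and 2 fell (4.64% and 2.81% of all genes), with a median of 0.67, and in Th17 against Th1 10 were higher and 1 lower (2.83% and 2.70% of all genes), with a median of 0.69. The count for Th1 against Naive went from 11 to 7 without Naive replicate 1 or Naive replicate 2 and to 5 without Th1 replicate 1. That for Th17 against Th1 went from 11 to 7 without Th17 replicate 1.

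*Hif1a*, which encodes the hypoxia-inducible factor, and *Batf*, which encodes an AP-1 family factor, were among the listed factors that rose in Th17. *Hif1a*, *Batf* and *Fosl2*, another AP-1 family gene, rose in Th1.

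All 7 tested cytokines rose in Th17 against Naive. *Il17a* had 0.308 and 0.0495 CPM in Naive, 526 and 691 CPM in Th17 and 0.542 and 0.0632 CPM in Th1. *Il17f* had 0.352 and 0.0495 CPM in Naive, 769 and 1090 CPM in Th17 and 0.480 and 0 CPM in Th1. *Il22* had 0.323 and 0.149 CPM in Naive, 636 and 646 CPM in Th17 and 0.557 and 0 CPM in Th1. These 3 effector cytokines were thus abundant in Th17 libraries and below 1 CPM in all Naive and Th1 libraries, with log2 fold changes over Naive of 11.4 (SE 0.72), 11.8 (SE 0.84) and 11.2 (SE 0.75) in Th17. Without Naive replicate 1 these were 13.5, 14.1 and 12.04. *Il21*, a cytokine of several helper T cell types, had 1.75 and 1.73 CPM in Naive, 35.5 and 48.7 CPM in Th17 and 13.4 and 13.6 CPM in Th1. Its order was that of the pair, with log2 fold changes of 4.59 (SE 0.36) in Th17 and 2.95 (SE 0.33) in Th1 over Naive. *Csf2*, which encodes GM-CSF, reached 30.4 and 24.5 CPM in Th17 and 20.5 and 32.5 CPM in Th1, from 0.279 and 0.0990 CPM in Naive. *Il24* had 1 count in Naive, 3.50 and 3.28 CPM in Th17 and 0.696 and 0.253 CPM in Th1. *Ccl20*, the ligand of CCR6, had no count in Naive or Th1 and 1.39 and 1.58 CPM in Th17, which was at least 15.4-fold above Naive and at least 12.6-fold above Th1 when the limit of 3 counts per library stood for the groups at 0. The median of the list was the same with *Ccl20* at this bound.

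Among the receptors, *Ltb4r1*, a leukotriene B4 receptor, had the order of the pair, with 2.06 and 1.14 CPM in Naive, 89.1 and 78.0 CPM in Th17 and 25.02 and 17.4 CPM in Th1. It was higher in Th17 than in Th1 (log2 fold change 1.97, SE 0.34, edgeR adjusted p = 0.00509), a call that was lost without Th17 replicate 1 (1.88), Th17 replicate 2 (2.06) or Th1 replicate 2 (1.73). *Il23r*, the receptor for IL-23, had 0.572 and 0.149 CPM in Naive, 33.1 and 30.4 CPM in Th17 and 2.01 and 0.253 CPM in Th1. *Il1r1*, the receptor for IL-1, had 3.67 and 3.71 CPM in Naive, 67.9 and 48.3 CPM in Th17 and 2.85 and 3.04 CPM in Th1. Both rose in Th17 over Naive, by 6.26 (SE 0.83) and 3.98 (SE 0.34) on the log2 scale (7.71 for *Il23r* without Naive replicate 1), and neither passed the test in Th1 over Naive. *Ccr6*, a chemokine receptor of Th17 cells, fell in Th1, from 2.57 and 4.61 CPM in Naive to 0.248 and 0.190 CPM (log2 fold change -3.95, SE 0.58, edgeR adjusted p = 0.00182), which was not called without Th1 replicate 1 (-4.17).

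**Figure D4:**
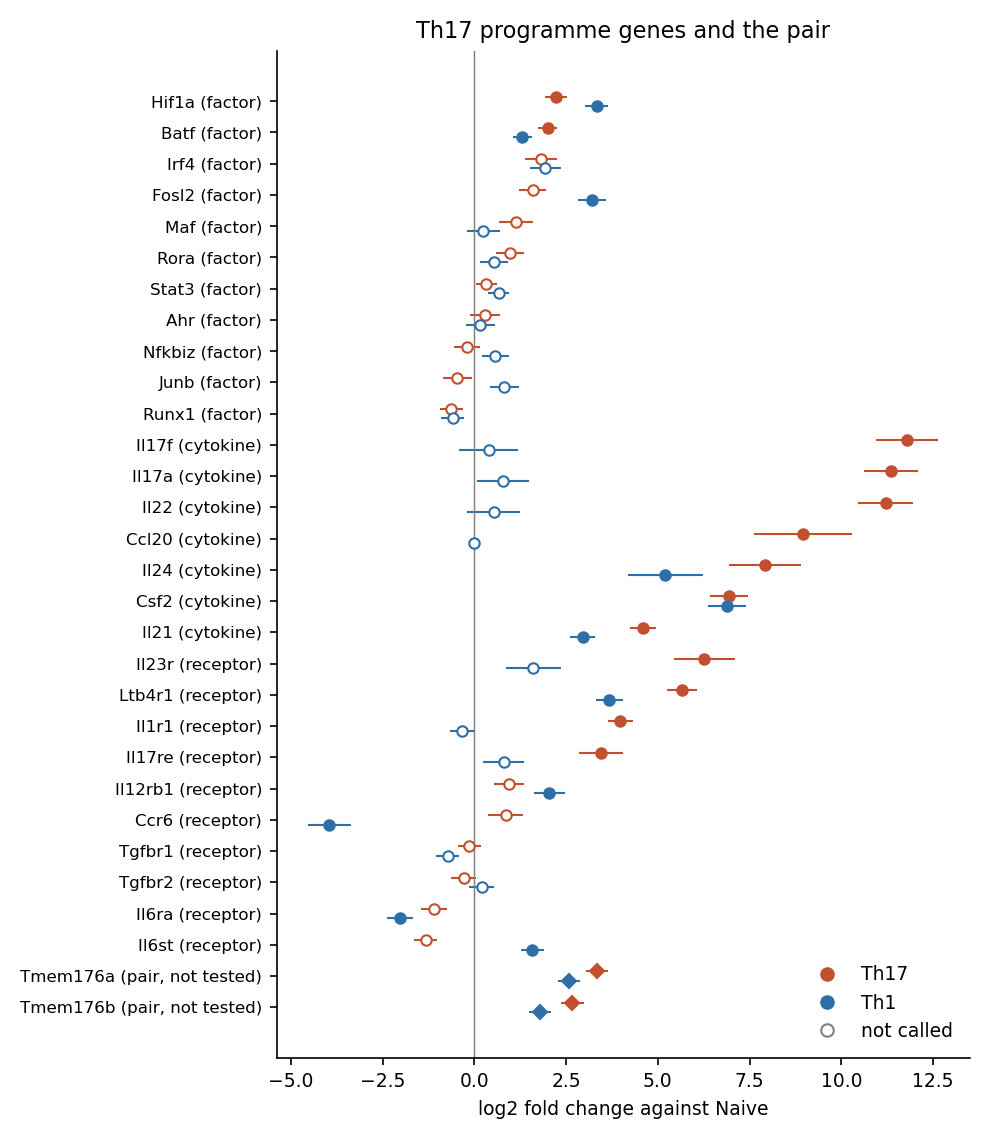
Fitted log2 fold change over Naive (SE as error bars) of 28 of the 29 tested Th17 programme genes and of the pair, in Th17 and in Th1; filled circles passed the test, open circles did not, and diamonds were not tested. *Il17a*, *Il17f* and *Il22* reach 11.2 to 11.8 in Th17 and stay near 0 in Th1, whereas *Tmem176a* is at 3.35 and 2.59 and *Tmem176b* at 2.68 and 1.80; the fitted values of *Ccl20* and *Il24*, which had 0 and 1 counts in Naive, depend on the prior count of the fit.

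The MS4A genes, which encode the related proteins, were described by the same counts. Of 18 listed, 16 were in the files, 4 of these (*Ms4a5*, *Ms4a10*, *Ms4a13* and *Ms4a18*) were at 0 in every library, and 10 were tested. *Ms4a4c* was the 1 gene called in Th17 against Naive, and it fell, from 21.8 and 18.1 CPM to 2.95 and 4.02 CPM (log2 fold change -2.53, SE 0.33, edgeR adjusted p = 0.00112, beside 5.43% of all genes called), with 32.1 and 31.2 CPM in Th1. It was not called without Th17 replicate 1 (-2.30). DESeq2 called 2 members higher and 1 lower in this comparison. *Ms4a3*, known from granulocyte and monocyte progenitors, was the 1 gene called in Th1 against Naive, and it fell, from 10.6 and 4.11 CPM to 1.10 and 0.316 CPM (log2 fold change -3.23, SE 0.59, edgeR adjusted p = 0.00513, beside 7.45% of all genes called). That call was lost without Naive replicate 1 (-2.36), Th17 replicate 1 (-3.25) or Th1 replicate 2 (-2.76), and in a fit of the 4 libraries compared (-3.27), and the value was -4.50 without Th1 replicate 1. In Th17 against Th1, *Ms4a3* was higher, with 33.8 and 40.5 CPM in Th17, and *Ms4a4c* was lower, beside 5.53% of all genes called. The most abundant members, *Ms4a4b* and *Ms4a6b*, passed the test in none of the comparisons by edgeR, with 162 to 1170 CPM and 327 to 667 CPM across the libraries. The medians of the 10 log2 fold changes were 1.19 in Th17 over Naive, 0.35 in Th1 over Naive and 0.61 in Th17 over Th1, beside -0.02, -0.02 and 0.03 for all genes.

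Since the pair is known from myeloid cells, the markers of other cell types were summed in each library. The 8 dendritic cell genes, all in the files, summed to 5.05 to 17.5 CPM in Naive, 23.1 to 42.7 CPM in Th17 and 8.73 to 12.2 CPM in Th1. *Batf3* and *Itgax* were the most abundant of them, and *Cd209a* and *Siglech* were at 0 in all Th17 and Th1 libraries. Over all genes 4.01% were called higher in Th17 and 4.64% in Th1, and 1.43% and 2.81% lower. *Batf3*, which activated T cells also express, was called higher in Th17 and, together with *Xcr1*, in Th1, and *Flt3* was called lower in Th1. The macrophage genes, 9 of 10 in the files, summed to 9.16 to 11.3 CPM in Naive, 18.9 to 48.4 CPM in Th17 and 4.11 to 9.45 CPM in Th1. *Csf1r* and *Cd68* led them, *C1qa* was at 0 in both Th1 libraries, *Mrc1* and *Fcgr1* were called higher in Th17, and *Csf1r* was called lower in Th1.

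In Th1, where *Tmem176a* was 6.01-fold and *Tmem176b* 3.48-fold above Naive, the summed dendritic cell and macrophage genes were thus not above the range of Naive. The MHC class II genes, described below, summed to 51.1 and 80.4 CPM in Th1 and to 30.5 and 8.57 CPM in Naive. In Th17 replicates 1 and 2, the macrophage sum was 18.9 and 48.4 CPM, *Itgax* was at 1.44 and 23.8 CPM, *Tmem176a* at 52.1 and 49.3 CPM and *Tmem176b* at 75.1 and 69.4 CPM. These are single libraries, and no difference between them was tested.

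The MHC class II genes, 4 of 4 in the files and led by *H2-Ab1* and *Cd74*, summed to 8.57 to 30.5 CPM in Naive, 226 to 373 CPM in Th17 and 51.1 to 80.4 CPM in Th1, which is the order of the pair. Of the 4, 3 were called higher in Th17 against Naive, beside 4.01% of all genes. In Th1 against Naive edgeR and DESeq2 called 0, and 2 had an unadjusted p under 0.05. The mast cell and basophil genes, 6 of 6 in the files and led by *Prg2* and *Prss34*, summed to 21.0 to 94.0 CPM in Naive, 256 to 589 CPM in Th17 and 38.9 to 50.02 CPM in Th1. Of the 6, 3 were called higher in Th17 against Naive, beside 4.01% of all genes. In Th1 against Naive 0 were called higher and 1, *Prg2*, lower, beside 4.64% and 2.81% of all genes. The neutrophil genes, 7 of 7 in the files, summed to 189 to 310 CPM in Naive, 2774 to 2875 CPM in Th17 and 27.4 to 39.3 CPM in Th1, but the members differed in direction. *Mpo* and *Elane*, enzymes of immature granulocytes, made up most of the Naive sum, at 251 and 159 CPM and at 57.3 and 29.6 CPM. In Th17 against Naive 5 of the 7 were called higher and *Mpo* lower (log2 fold change -1.69, SE 0.29, edgeR adjusted p = 0.00473), and *S100a8* and *S100a9* each stood above 1000 CPM in both Th17 libraries. In Th1 against Naive *Ngp*, *Ltf*, *S100a8* and *S100a9* were called higher and *Mpo* and *Elane* lower. B cell genes, 6 of 6 in the files and led by *Cd79b* and *Cd79a*, summed to 6.54 to 10.6 CPM in Naive, 13.4 to 17.4 CPM in Th17 and 2.49 to 3.29 CPM in Th1. Of the 5 tested, 1 was called higher in Th17 against Naive, beside 4.01% of all genes. In Th1 against Naive 1, *Cd79b*, was called lower, beside 2.81% of all genes. Genes of gamma delta T cells and innate lymphoid cells, 6 of 10 in the files and led by *Kit* and *Zbtb16*, summed to 49.97 to 118 CPM in Naive, 35.2 to 48.1 CPM in Th17 and 34.3 to 41.0 CPM in Th1, and edgeR called 0 of them in any comparison. Of these 6 genes, 3, 5 and 3 had an unadjusted p under 0.05 in Th17 against Naive, Th1 against Naive and Th17 against Th1, and DESeq2 called 2, 1 and 1. The sums of the dendritic cell, macrophage, MHC class II, mast cell, neutrophil and B cell lists were all highest in Th17, as were *Tmem176a* and *Tmem176b*, and the part of such cells in the Th17 levels of the pair was not tested.

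**Figure D5:**
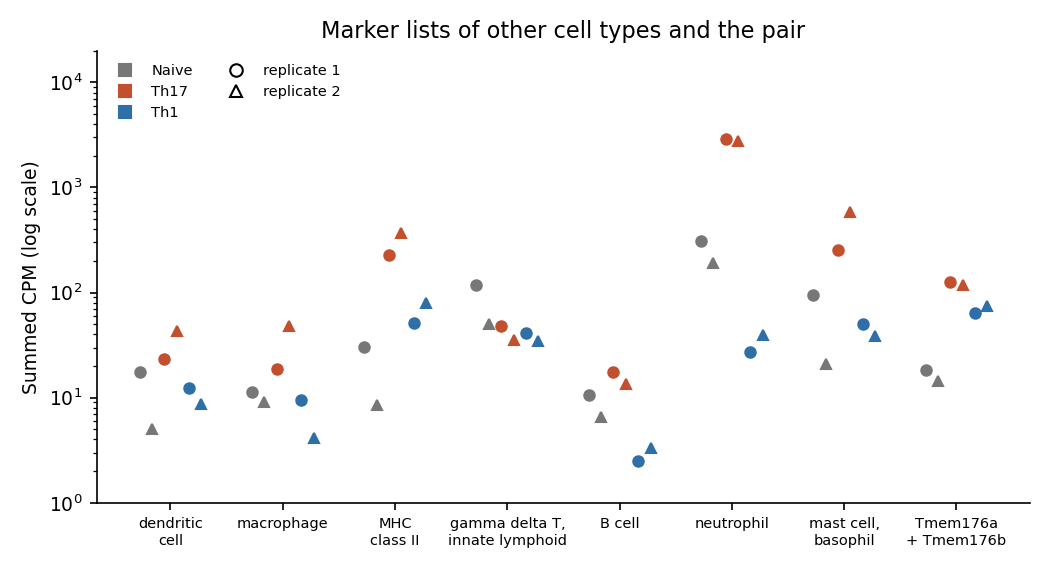
Summed TMM-scaled CPM, on a log scale, of the marker lists of other cell types and of the pair in each library. The pair is higher in both Th1 libraries than in both Naive libraries, and so is the MHC class II sum. The other marker sums in Th1 lie within or below the Naive range. All sums but that of gamma delta T and innate lymphoid cells are highest in Th17.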

How the data were processed

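Polyadenylated RNA of 6 libraries was reverse transcribed with Smart-seq2 chemistry and sequenced. The authors mapped reads to mm10 with HISAT2 2.2.1 and counted them per gene with HTSeq 0.13.5, and the deposited values are raw counts. The methods text describes removal of duplicates and default counting, whereas the code given with the study shows reverse-strand counting and no such removal, and which applies to the files was not settled here. Total counts per library ranged from 17742158 to 69080017.

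Samples were grouped by their labels as Naive, Th17 and Th1. The fit was made in edgeR 4.0.16 under R 4.3.3 (filterByExpr, TMM, quasi-likelihood test, cell type as the only term, all 6 libraries) over 13607 genes, with Benjamini-Hochberg adjustment over all of them. Calls required an adjusted p below 0.01 together with a log2 fold change above 1 in either direction. The procedure was tested on simulated data. DESeq2 1.42.0 and other filters, scalings and library sets were alternatives. The members and all gene lists were chosen with earlier results of these data known. Named genes were the members, listed genes by role (at most 12 of a list with values, called ones with the largest change first), the nearest neighbours within 500 kb, the 10 most alike genes and the most abundant markers of each other cell type. A few called or silent genes of these lists were named beyond that rule after their values were seen. Gene positions came from GENCODE on GRCm38 (23017 of 24223 symbols matched) and promoter windows from RefSeq on GRCm38.p6. Exact binomial intervals were at the 95% level. A few genes of the lists are counted but not reported by name here.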

Additional observations from a re-analysis of the deposited data

How the results depend on the processing

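The fold changes of the pair kept their direction under every alternative. Under scaling by library size alone, which moved the median of all genes from -0.02 to -0.26 (log2) in Th1 over Naive and from 0.03 to 0.24 in Th17 over Th1, *Tmem176a* was at 2.33 and 0.99 in these comparisons and *Tmem176b* at 1.10 in the second. That scaling also moved the share of calls that were higher in Th17 than in Th1 from 51.2% to 63.5%, that of calls higher in Th1 than in Naive from 62.2% to 52.4% (46.7% without Naive replicate 2), and the programme genes called in Th1 against Naive from 11 to 7. CPM of the raw library total gave 5.31, 52.9 and 26.7 for *Tmem176a* in Naive, Th17 and Th1 and 35.3 for *Tmem176b* in Th1. With the longest transcript as length, the ratio of *Tmem176a* to *Tmem176b* was 0.510 in Th17 and 0.551 in Th1. Of the 10 genes most like the pair, 2 and 5 were shared under Pearson r and under thinning.

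Leaving out 1 library at a time gave log2 fold changes of 3.29 to 3.41 (*Tmem176a*) and 2.41 to 2.99 (*Tmem176b*) for Th17 over Naive, 2.49 to 2.73 and 1.55 to 2.11 for Th1 over Naive, and 0.67 to 0.86 and 0.78 to 0.97 for Th17 over Th1. Genes called then numbered 319 to 885, 516 to 939 and 266 to 1016 in these comparisons, programme genes called 11 to 15, 5 to 10 and 7 to 12, and neighbours called in any comparison 1 to 3. The counts over all genes fell by more than 1.5 times without Naive replicate 1 (451), Th17 replicate 1 (319) or Th17 replicate 2 (384) in Th17 against Naive, and without Naive replicate 1 (516) or Th1 replicate 1 (562) in Th1 against Naive. In Th17 against Th1 they did so without Th17 replicate 1 (286), Th17 replicate 2 (266), Th1 replicate 1 (455) or Th1 replicate 2 (412).

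Against 739, 1014 and 752 genes called in Th17 against Naive, Th1 against Naive and Th17 against Th1, no filter on low counts gave 2154, 2259 and 2232, at least 10 counts in every library (fewer genes tested) 343, 674 and 411, DESeq2 1717, 1917 and 1797, an adjusted p under 0.05 2063, 2164 and 2112, and a test against a fold change of 2 403, 511 and 349. Programme genes called were 7, 7 and 5 with at least 10 counts in every library, 6 in Th1 against Naive under the test against a fold change of 2, and 17 in Th17 against Th1 with no filter. Neighbours called were 8 with no filter and 10 with DESeq2. The test against a fold change of 2 ended the calls of *Gimap7*, *Gpnmb* and *Ms4a3* in Th1 against Naive and of *Igf2bp3* and *Ltb4r1* in Th17 against Th1. Except where a cause is named, the cause was not tested.

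Same-numbered deviations from the group means correlated at -0.23 (Naive and Th17), 0.17 (Naive and Th1) and 0.08 (Th17 and Th1). These values cannot decide whether same-numbered libraries were prepared as pairs, since replicate 1 was also the deeper library in each group. With the replicate number as a block, *Tmem176a* was at 3.35, 2.58 and 0.77 and *Tmem176b* at 2.69, 1.82 and 0.87, and 1035, 1402 and 1041 genes were called. The same block in DESeq2, chosen after seeing the data, called 1515, 1799 and 1630 genes. In the 4 libraries of Naive and Th17, also added after seeing the data, the block called 1307 genes with the numbers as given and 1499 with crossed pairing. With 2 libraries a group no exact permutation test of 1 gene can go below p = 0.333, and the count of reads limits *Tmem176a* most in Naive replicate 2, which had 105.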
